A study of Mus musculus with 3 samples.

Results

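The 44 genes described here encode the machinery of 2 successive stages of cell division, and they were read across the blood lineages of mouse bone marrow 14 days after irradiation. The first 20 are replication genes, used in S phase, and the other 24 are G2/M genes, used from G2 through mitosis. The lists were set by gene name and not by a measured threshold, and the names matched 44 of the 56980 genes listed for each library. Bone marrow nucleated cells (BMNCs) from the femurs of C57BL/6 mice were examined at day 14 in 3 groups: mice without irradiation (Control), mice given 6 Gy of Cobalt-60 gamma rays and solvent (IR), and mice given 6 Gy with intraperitoneal cannabidiol before and after irradiation (IR+CBD). CBD is a plant cannabinoid, dissolved for injection in soybean oil with DMSO. The methods name male mice for the radioprotection experiments and give no age for the sequenced animals. The label of the third library names only CBD, and its irradiation comes from the series' design text.

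Each group was 1 droplet library made from the pooled cells of 3 mice. The Lin-Kit+, the Lin-Kit- and the Lin+ fractions were combined after sorting at 5:4:1, so shares of cells describe this mix and not marrow. With 1 library per group no test between groups was possible, and mouse, sort, library and treatment cannot be told apart. Intervals in parentheses are 95% intervals that cover counting error only, not the sampling of cells or mice.

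Background helps to read the 2 lists. Before S phase, Cdc6 and Cdt1 load the MCM helicase (Mcm2 to Mcm7) onto replication origins. In S phase, Cdc45 and the GINS complex (Gins2) complete the helicase. There, the clamp Pcna with its loader subunit Rfc2 holds the polymerase to DNA, while Tyms, Rrm1 and Rrm2 supply nucleotides. After replication, Cdk1 with cyclins A2, B1 and B2 (Ccna2, Ccnb1, Ccnb2) drives entry into mitosis, the kinases Aurka, Aurkb, Plk1 and Bub1 run the spindle, and Cdc20 and Ube2c work with the anaphase-promoting complex (APC/C) to degrade cyclin B and end mitosis. E2F factors are known to switch on many S phase genes, and the DREAM and MuvB complexes are known to act on many G2/M genes through an element called the CHR, often near a CCAAT box. Both programmes are known to run in dividing progenitors of every marrow lineage and to be shut down in mature neutrophils.

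Promoters were read for the letters that these factors are known to bind. RefSeq promoters (GRCm38.p6) were at hand for 37 of the 44 genes, and 250 bases before to 50 after each start were searched on both strands for E2F letters (TTTCCCGC, TTTCGCGC, TTTGGCGC or TTTGCCGC, which may overlap one another), for the CHR (TTTGAA) and for CCAAT. E2F letters were found in 8 of 16 replication genes (50%), in 1 of 21 G2/M genes (4.76%) and in 2.6% of all 27025 genes with a promoter. The CHR and CCAAT occurred together in 14 of 21 G2/M genes (66.7%), in 2 of 16 replication genes (12.5%) and in 7.97% of all genes. The CHR taken alone gave the same 14 and 2 genes, and 20.2% of all genes. CCAAT taken alone differed less between the lists, at 85.7% of G2/M and 75% of replication genes, with 41.1% of all genes. A match is a description of the letters and not a site. The 6 promoters printed here, 3 of each list, show these letters in genes whose values are given below, and were chosen after the matches were seen. Each line gives the 200 bases before the start, read in the direction of the gene. Capitals mark E2F letters in Mcm5, Mcm6 and Cdc6 and the CHR and CCAAT in Ube2c, Cdc20 and Cdk1, where an E2F match of Cdk1 was left in lower case.
Mcm5, chr8:75109309-75109508, plus strand, 2 E2F matches: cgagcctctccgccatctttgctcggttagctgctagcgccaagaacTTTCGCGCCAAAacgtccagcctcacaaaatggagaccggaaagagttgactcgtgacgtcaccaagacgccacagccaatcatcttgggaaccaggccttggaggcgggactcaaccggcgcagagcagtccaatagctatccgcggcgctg
Mcm6, chr1:128359706-128359905, minus strand, 3 E2F matches: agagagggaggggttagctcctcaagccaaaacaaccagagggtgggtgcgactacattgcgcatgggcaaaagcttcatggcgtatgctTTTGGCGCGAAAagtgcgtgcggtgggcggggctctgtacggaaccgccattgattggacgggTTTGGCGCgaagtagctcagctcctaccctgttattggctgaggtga
Cdc6, chr11:98907951-98908150, plus strand, 1 E2F match: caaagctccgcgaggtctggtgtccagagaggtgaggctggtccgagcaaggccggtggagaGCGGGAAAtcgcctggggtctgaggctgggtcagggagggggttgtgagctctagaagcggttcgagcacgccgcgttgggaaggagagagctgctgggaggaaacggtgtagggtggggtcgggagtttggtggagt
Ube2c, chr2:164769729-164769928, plus strand, 1 CHR and 5 CCAAT matches: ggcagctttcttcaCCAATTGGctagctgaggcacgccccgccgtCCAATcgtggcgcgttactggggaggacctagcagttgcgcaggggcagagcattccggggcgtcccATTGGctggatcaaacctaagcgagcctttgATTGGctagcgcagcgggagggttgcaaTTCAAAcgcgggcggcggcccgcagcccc
Cdc20, chr4:118437344-118437543, minus strand, 1 CHR and 2 CCAAT matches: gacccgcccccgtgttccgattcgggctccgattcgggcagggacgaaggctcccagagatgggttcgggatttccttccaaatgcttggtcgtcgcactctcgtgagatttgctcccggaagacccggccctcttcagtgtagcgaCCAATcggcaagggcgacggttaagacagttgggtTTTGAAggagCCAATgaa
Cdk1, chr10:69352913-69353112, minus strand, 2 CHR and 2 CCAAT matches: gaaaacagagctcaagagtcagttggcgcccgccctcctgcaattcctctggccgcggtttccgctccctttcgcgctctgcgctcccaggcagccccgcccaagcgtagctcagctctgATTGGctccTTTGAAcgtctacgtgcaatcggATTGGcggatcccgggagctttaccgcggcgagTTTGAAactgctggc

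The 2 lists were summed apart throughout. The deposited values are counts of unique molecular identifiers (UMIs, each a captured RNA molecule). Cells needed at least 200 genes and at most 5% of UMIs from mitochondrial genes, which kept 10674 Control, 10345 IR and 10273 IR+CBD cells of 12200, 11951 and 11884 barcodes. These libraries held between 177806843 and 206932522 UMIs in all barcodes, with a median depth per kept cell of 12479.5, 14211 and 12502 UMIs. Between 26 and 34 barcodes were shared by any pair of libraries.

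Lineages were followed with gates on the raw UMIs of marker genes. The Mpo gate (at least 5 UMIs of Mpo, the myeloperoxidase of granulocyte and monocyte progenitors) held 3227 Control, 2916 IR and 3294 IR+CBD cells. The Klf1 gate (at least 2 UMIs of Klf1, an erythroid transcription factor) held 586, 1446 and 1181 cells, and the Igll1 gate (at least 2 UMIs of Igll1, a surrogate light chain of early B cells) held 910, 918 and 438. The Fcnb gate (at least 10 UMIs of Fcnb, a ficolin of immature neutrophils) held 224, 220 and 260, the Siglech gate (at least 3 UMIs of Siglech, a receptor of plasmacytoid dendritic cells) held 273, 46 and 79, and the Cd34 Adgrl4 gate (at least 1 UMI of each, a combination found in stem and progenitor cells) held 3116, 1952 and 1970. Gates overlap, and Mpo gate cells made up 69.0%, 87.4% and 83.4% of the Cd34 Adgrl4 gate in Control, IR and IR+CBD, while 66.6%, 58.5% and 49.9% of the Mpo gate lay in the Cd34 Adgrl4 gate. Mpo gate cells also made up 41.5%, 33.6% and 32.3% of the Fcnb gate in Control, IR and IR+CBD. As a reference low in division, cells with at least 20 UMIs of Retnlg, a gene of mature neutrophils, and fewer than 10 UMIs of Fcnb were used (847, 894 and 964 cells). This reference thus holds no cell of the Fcnb gate.

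All fixed markers of a gate's lineage were detected in it. Elane, the neutrophil elastase, stood at 3056, 3486 and 4318 CPM (counts per 1000000 UMIs) in the Mpo gate, and Car1, an erythroid carbonic anhydrase, at 3347, 1846 and 2425 in the Klf1 gate. The summed CPM of the stem and progenitor markers (Hlf, Mecom, Procr, Kit, Flt3 and Meis1) in the Cd34 Adgrl4 gate was 431, 297 and 366 in Control, IR and IR+CBD. Its share of Mpo gate cells differed between libraries too, as given above. The Siglech gate carried genes of other cells unevenly, since the summed mature neutrophil markers were 168, 1541 and 624 CPM in Control, IR and IR+CBD. Endothelial markers summed to between 121 and 124 CPM in the Cd34 Adgrl4 gate, nearly all of it Pecam1. Predicted doublets were kept, and by Scrublet scores they made up 12.3% to 18.3% of cells in the Mpo, Klf1, Igll1, Fcnb and Cd34 Adgrl4 gates and 16.1%, 26.1% and 22.8% in the Siglech gate.

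Expression is given as CPM of all UMIs in a gate. Genes captured at their ends differ in efficiency, so levels are compared between cells and not between genes. Of the G2/M sum, Hmgb2, an abundant chromatin protein, took between 40.9% (Klf1 gate) and 55.35% (Fcnb gate) in the 6 gates.

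Across lineages, the 2 lists did not move together. The summed CPM of the G2/M genes was highest in the Igll1 gate, at 7667, 6599 and 7093 in Control, IR and IR+CBD, followed by the Fcnb gate, at 6382, 5973 and 6382. It was 4840, 5169 and 5159 in the Klf1 gate, 4157, 3850 and 3989 in the Mpo gate, 3854, 3794 and 3977 in the Cd34 Adgrl4 gate, and 3309, 4300 and 4263 in the Siglech gate. The replication genes followed another order. They summed to 3056, 2896 and 3182 CPM in the Igll1 gate, 2625, 2929 and 2845 in the Klf1 gate, 2435, 2377 and 2168 in the Mpo gate, 2341, 2374 and 2165 in the Cd34 Adgrl4 gate, 1869, 1439 and 1272 in the Siglech gate and 1807, 1643 and 1572 in the Fcnb gate. The Fcnb gate, second by the G2/M sum with Hmgb2, was lower by replication genes than the other gates in Control. The Siglech gate was lower than it in IR and IR+CBD. Without Hmgb2 the G2/M sum of the Fcnb gate was above that of the Klf1 gate in Control only. It was then 1.349, 1.313 and 1.395 times that of the Mpo gate in Control, IR and IR+CBD. For the Klf1 gate these ratios were 1.29, 1.504 and 1.444. The Mpo and Cd34 Adgrl4 gates, which overlap, lay next to each other in both orders in Control.

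**Figure D1:**
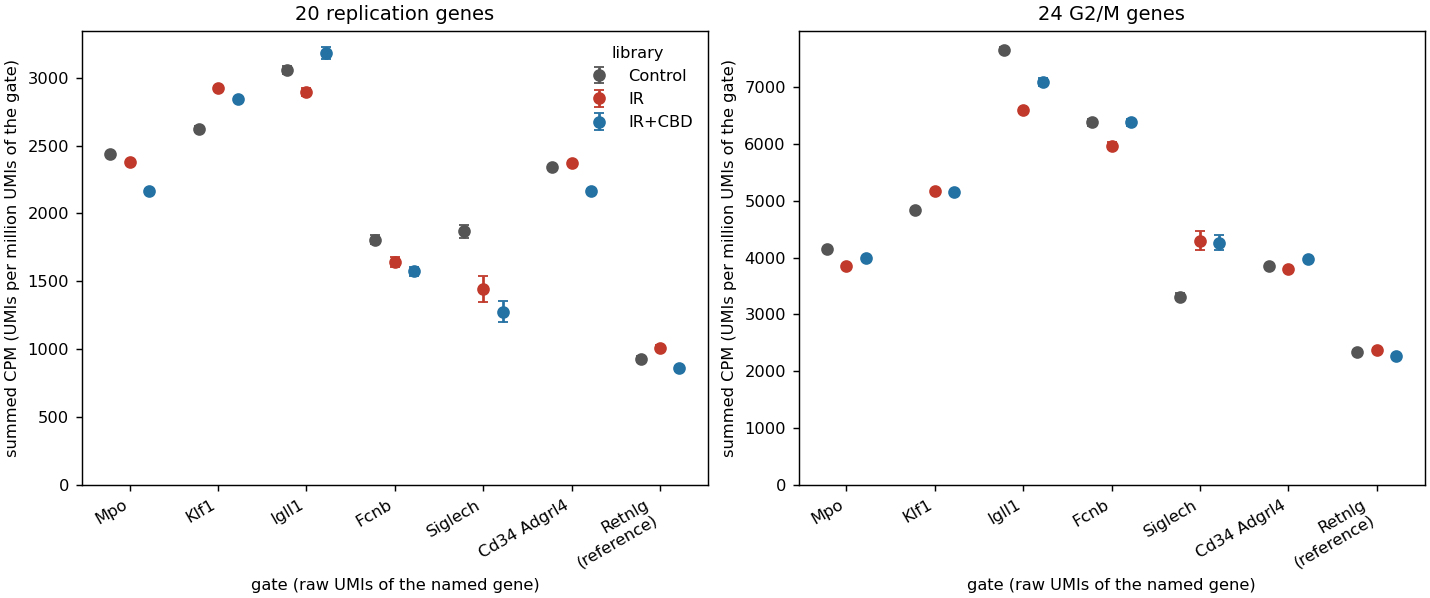
Summed CPM (y axis, UMIs per 1000000 UMIs of the gate, from 0) of the 20 replication genes (left) and the 24 G2/M genes (right) in each gate and in the Retnlg reference cells (x axis). Points are libraries and bars are 95% counting intervals, and the Fcnb gate sits low on the left and high on the right, with 1807 and 6382 CPM in Control.

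Mature neutrophils set the low end of both programmes. In the Retnlg reference the replication genes summed to 926, 1009 and 859 CPM and the G2/M genes to 2334, 2373 and 2266 CPM. Against the Fcnb gate of the same library this was 0.513, 0.614 and 0.546 times the replication sum and 0.366, 0.397 and 0.355 times the G2/M sum. All 23 G2/M genes with enough UMIs (at least 100 in both cell sets together) and 15 replication genes were at least 20% lower in all 3 libraries, against 14.4% of all genes compared. From Mpo through Fcnb to Retnlg cells, the sums of the granulocyte lineage thus ran from high to low in replication genes and through a G2/M maximum in the Fcnb gate. For replication genes, the count of genes lower at the step from Mpo to Fcnb lay near the background of all genes, as given below.

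The immature neutrophils of the Fcnb gate combined high G2/M with low replication sums. Its G2/M sum was 1.53, 1.55 and 1.60 times that of the Mpo gate in Control, IR and IR+CBD, and 1.349, 1.313 and 1.395 times without Hmgb2. Its replication sum was 0.742, 0.691 and 0.725 times as high and its MCM sum 0.567, 0.516 and 0.538 times. Part of its cells also lay in the Mpo gate, as given above. In all 3 libraries, 10 G2/M genes were at least 25% higher, where 9.65% of all 13005 genes compared were, and 12 replication genes were at least 20% lower, where 58.8% were. A ratio past 25% upward or 20% downward, the same fold in either direction, is called past the fold from here on. Since most genes were lower in this gate, the replication count lies near the background and the G2/M count above it. Nusap1, which bundles spindle microtubules, was 2.04, 2.10 and 2.05 times as high, and Mki67, which coats mitotic chromosomes, 1.82, 1.96 and 2.17 times. Mcm3 was 0.468, 0.426 and 0.495 times as high and Gins2 0.543, 0.442 and 0.426 times. Rrm2, the regulated subunit of ribonucleotide reductase, went the other way from its list, at 1.42, 1.49 and 1.40. So did the summed nucleotide supply genes Tyms, Rrm1 and Rrm2, at 1.08, 1.056 and 1.061 times the Mpo gate. Ccne1, Ccne2 and Slbp together stood at 1.085, 1.052 (0.985–1.123) and 1.108 times.

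Early B and erythroid cells exceeded the Mpo gate in the sums of both lists. The G2/M sum was 1.84, 1.71 and 1.78 times that of the Mpo gate in the Igll1 gate and 1.16, 1.34 and 1.29 times in the Klf1 gate. In the Igll1 gate 21 G2/M and 7 replication genes were higher past the fold in all 3 libraries, where 24.4% of all genes were. Cenpf, a kinetochore protein, stood at 3.14, 2.26 and 2.48 times the Mpo gate, the histone and DNA methylation reader Uhrf1 at 2.20, 2.12 and 2.91 times, and Pcna at 1.78, 1.76 and 2.12 times. The MCM sum of the Igll1 gate was nearer to that of the Mpo gate, with ratios of 0.985, 0.976 and 1.18. The Klf1 gate had 14 G2/M and 4 replication genes higher, where 21.6% of all genes were, and 1 G2/M gene lower, where 30.4% were, the kinetochore adaptor Knstrn at 0.739, 0.787 and 0.744. Ccne1, the cyclin E1 that brings cells into S phase, was farthest from 1 among the 20 replication genes there, at 3.69, 4.20 and 5.10 times the Mpo gate. Cdc6 stood at 1.64, 1.91 and 1.87, and the hyaluronan receptor and spindle protein Hmmr stood at 1.77, 2.16 and 2.07.

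The 2 remaining gates did not exceed the Mpo gate in replication genes. No member differed from it past the fold in all 3 libraries in the Cd34 Adgrl4 gate, which holds mostly Mpo gate cells, and few of all 14223 genes did (6.12% higher and 1.55% lower). In the Siglech gate 14 replication genes were lower by that fold, where 19.2% of all genes were, while its G2/M sum was 0.796, 1.12 and 1.07 times that of the Mpo gate. Taking the gate with the highest CPM for each gene, 11 G2/M genes had the Igll1 gate and 1 the Klf1 gate in all 3 libraries. The replication genes divided, with Pcna, Tyms, Gins2, Uhrf1 and Dtl highest in the Igll1 gate and Mcm2, Mcm7, Rrm1, Cdc6, Cdt1 and Ccne1 highest in the Klf1 gate, while Rfc2 was highest in the Cd34 Adgrl4 gate. The genes with printed promoters were also set side by side in both gates. Cdc6 stood at 36.5, 34.8 and 34.7 CPM in the Mpo gate and 41.3, 41.1 and 45.3 in the Igll1 gate, and Mcm5 at 154, 151 and 136 against 141, 145 and 156 CPM. Cdk1 stood at 149, 141 and 138 against 208, 184 and 187 CPM, and Cdc20 at 83.6, 75.1 and 82.2 against 140, 111 and 117 CPM. Mcm6 stood at 215, 225 and 193 against 216, 221 and 230 CPM. Cdk1, Cdc20 and Cdc6 were higher in the Igll1 gate in every library, while Mcm5 was lower there in Control and IR and Mcm6 in IR.

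**Figure D2:**
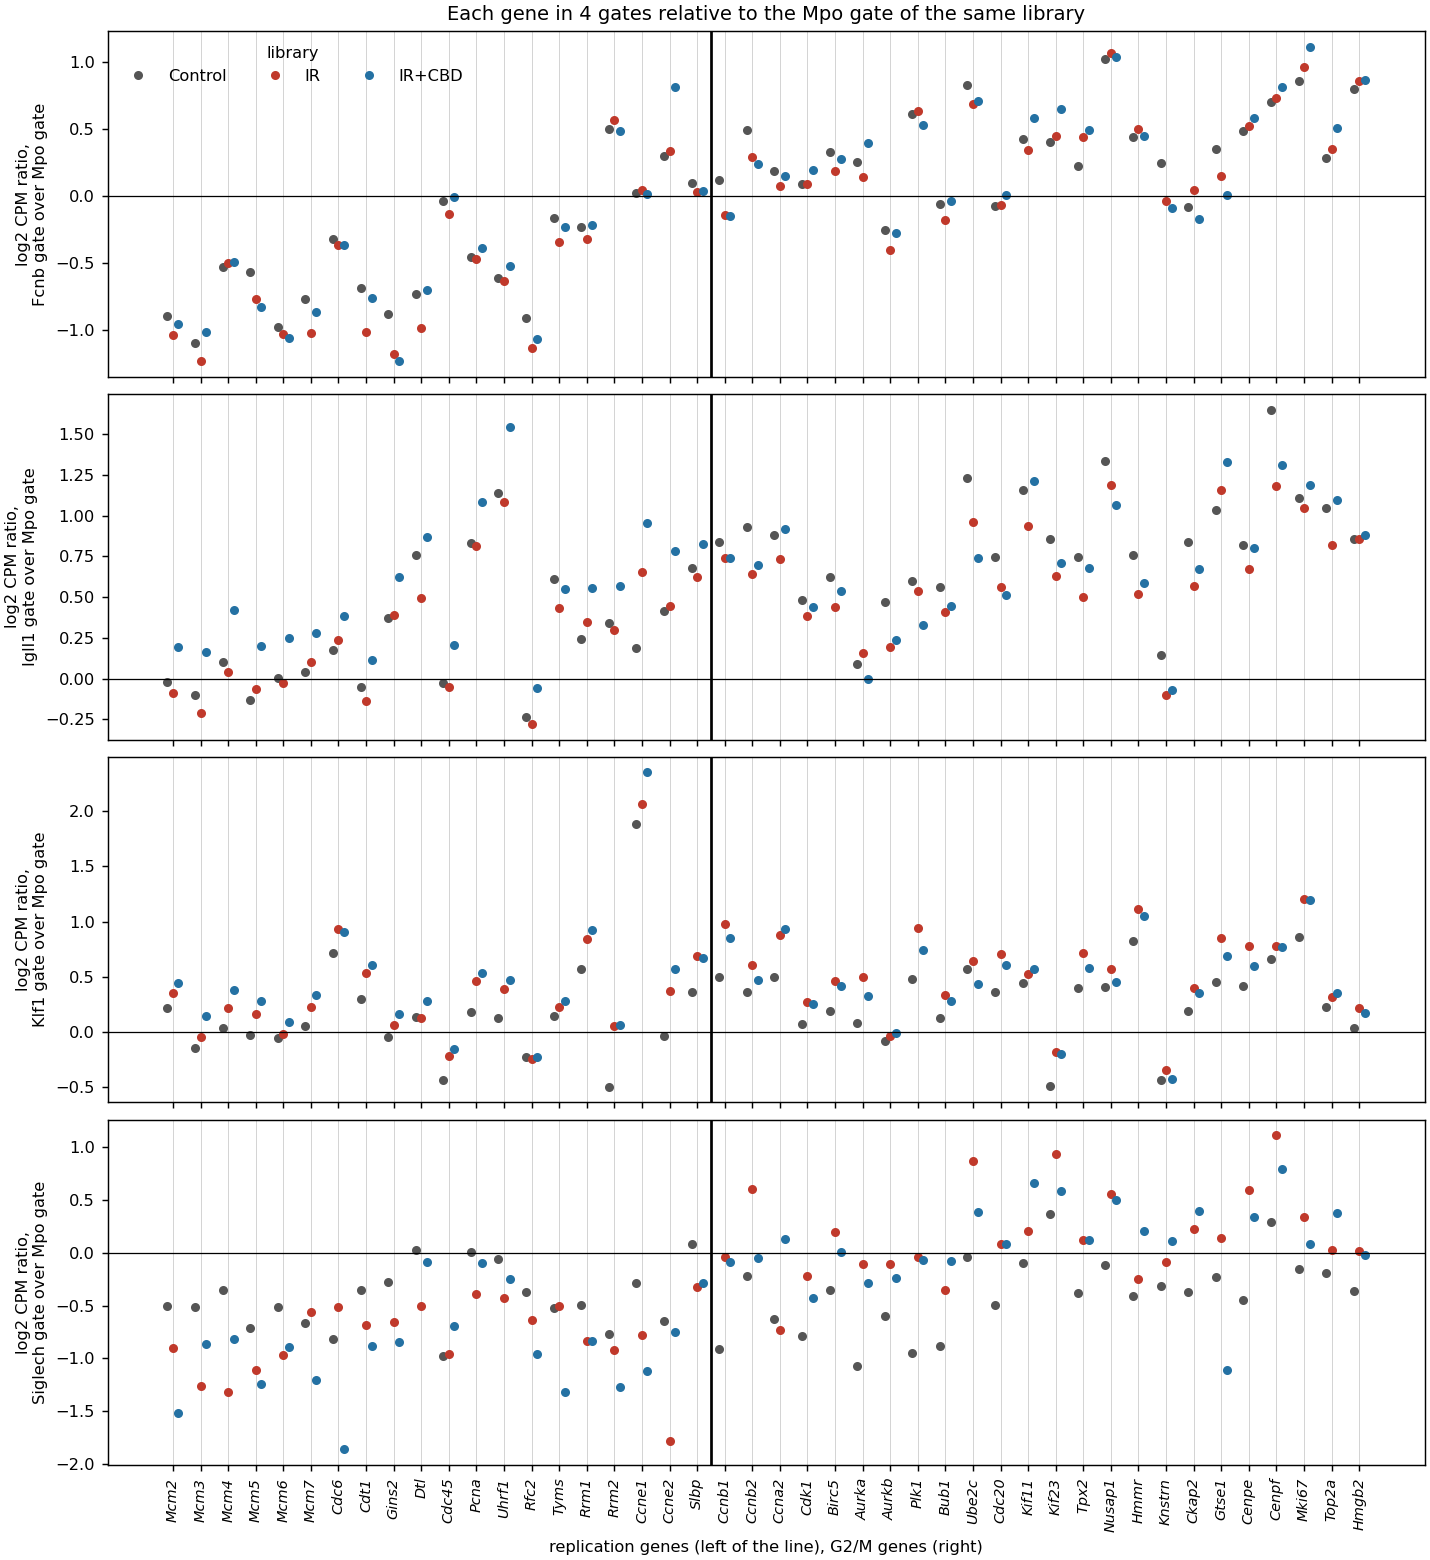
Log2 ratio of CPM (y axis) of each of the 44 genes (x axis, replication genes left of the vertical line and G2/M genes right of it) in 4 gates over the Mpo gate of the same library. Points are the 3 libraries, and in the Fcnb row most replication genes lie under 0 and most G2/M genes over it, with Mki67 at 1.82, 1.96 and 2.17 times the Mpo gate.

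A single number for this balance is the sum of the G2/M genes without Hmgb2 over the sum of the replication genes. It was 1.63, 1.62 and 1.86 in the Fcnb gate, 1.34, 1.14 and 1.13 in the Igll1 gate, 1.08, 1.04 and 1.07 in the Klf1 gate, 0.898, 0.854 and 0.969 in the Mpo gate and 0.896, 0.873 and 1.02 in the Cd34 Adgrl4 gate. The Fcnb gate was above the other gates in Control. In the Siglech gate the balance was 0.951, 1.71 and 1.89 in Control, IR and IR+CBD, the widest range between libraries of the 6 gates.

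Cells were also counted as expressing a programme. To compare cells of unequal depth, each cell was thinned to 5000 UMIs, and a cell with at least 3 of the 20 replication genes or at least 3 of the 24 G2/M genes was counted, with shallower cells left out (2798 Control, 3017 IR and 2902 IR+CBD). This cut was low for these cells, since the median over all BMNCs was 6 G2/M genes, and it was met in the Mpo gate by 88.3%, 89.7% and 88.5% of cells for the G2/M genes and by 97.0%, 96.5% and 95.8% for the replication genes. A cut at 8 genes, chosen after seeing the data, is therefore given beside it. In the Retnlg reference (median depth 8068, 8871 and 8106 UMIs) 20.9%, 17.9% and 19.9% of cells met the cut of 3 G2/M genes and 7.59%, 6.94% and 6.93% the cut of 8. Mature neutrophils are not expected to divide, so a share at or below these values was read as background. Near the cut of 3 G2/M genes lay 1008 Control, 749 IR and 770 IR+CBD cells with 1 gene fewer and 643, 528 and 568 at the cut itself. Over all BMNCs the G2/M share was 70.5%, 75.5% and 75.2% in thinned cells, but 65.6%, 63.9% and 63.9% without thinning, so its direction depended on the treatment of depth.

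In every gate the share of cells was above that of the Retnlg reference. A second set, of mature B cells by Ighd, was dropped as a reference after its high shares were seen, as given under other observations. At the cut of 8, G2/M cells were 65.9%, 55.1% and 61.6% of the Igll1 gate, 62.0%, 70.4% and 72.3% of the Klf1 gate and 59.8%, 51.1% and 57.7% of the Fcnb gate. They were 43.9%, 39.1% and 39.7% of the Mpo gate and 36.0%, 39.5% and 41.0% of the Cd34 Adgrl4 gate. The Siglech gate had the lowest share of the 6, at 17.3%, 24.4% and 24.3%. Among cells of at least 5000 UMIs, the Igll1, Klf1 and Fcnb gates exceeded the Mpo gate at the cut of 8 in every library. At the cut of 3 the Igll1 gate was below the Mpo gate in IR. Without thinning at that cut, the Igll1 gate had 77.0%, 61.4% and 72.15%, against 96.9%, 98.6% and 97.7% in the Mpo gate. The Fcnb gate was then below the Mpo gate too, at 94.6%, 92.3% and 92.7%.

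**Figure D3:**
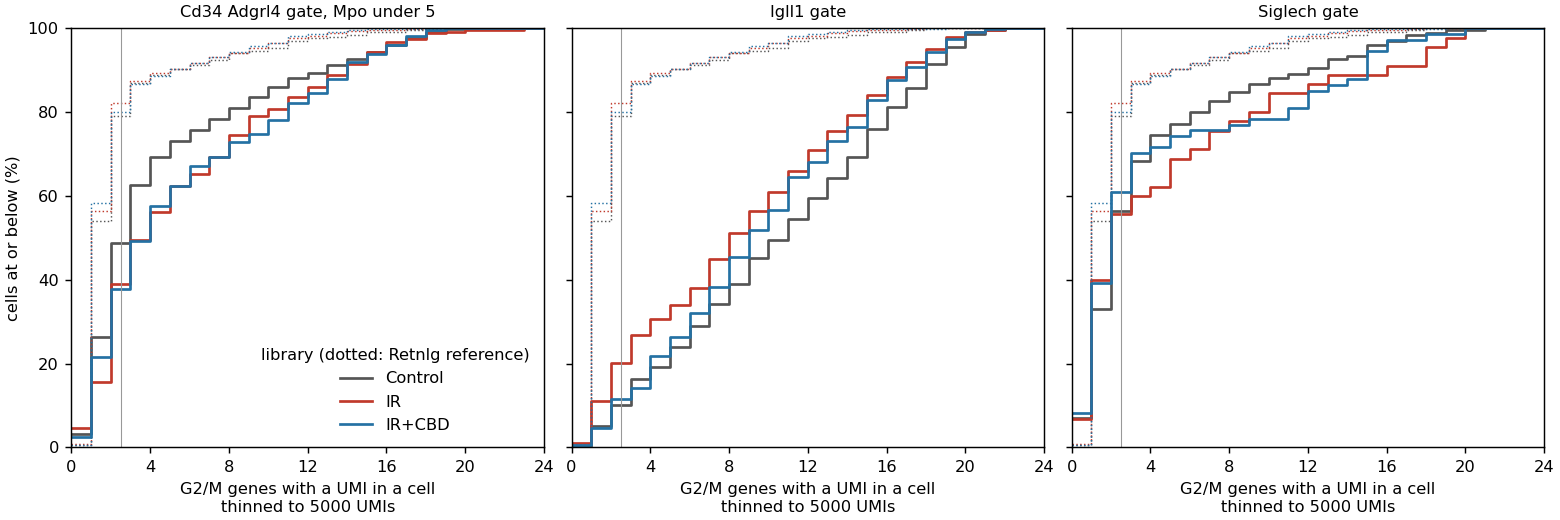
Share of cells at or below a number of G2/M genes (y axis, percent) against that number (x axis, 0 to 24) in cells thinned to 5000 UMIs, in Cd34 Adgrl4 gate cells under 5 UMIs of Mpo, the Igll1 gate and the Siglech gate (panels), with the Retnlg reference dotted. Cells right of the thin vertical line met the cut of 3 genes, and in the Igll1 panel the IR curve lies above that of Control at the line, where 79.9% against 89.9% of cells met it.

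IR was then compared with Control. Over all BMNCs both lists were slightly higher in IR, and fewer cells of a lineage and less RNA per cell cannot be told apart in such sums. The replication genes summed to 2221 CPM in Control and 2358 in IR, a ratio of 1.06 (1.06–1.07), and the G2/M genes to 4369 and 4427, a ratio of 1.01 (1.01–1.02). As a mean over cells in place of a sum over UMIs the G2/M ratio was 0.982. One replication gene passed the fold upward and no member passed it downward, where 9.59% of all 17989 genes were higher and 19.4% lower by that fold. That gene was Ccne1, at 29.2, 46.6 and 40.9 CPM in Control, IR and IR+CBD, a ratio of 1.59 (1.54–1.65) for IR over Control. In the gates its ratio was smaller, with 93.2, 105 and 105 CPM in the Klf1 gate and 25.7, 25.8 and 20.9 in the Fcnb gate. In the Retnlg reference the Ccne1 ratio was larger, at 9.42 and 19.7 CPM in Control and IR (2.09, 1.64–2.68). The replication sum of this reference, given above, was also higher in IR, although Mcm3, Tyms, Rfc2 and Cdc45 were lower there. A higher replication sum in IR, read below for the Klf1 gate, was thus also measured in cells not expected to divide. The Klf1 gate, where Ccne1 was highest, held 5.49% of cells in Control, 14.0% in IR and 11.5% of the IR+CBD cells, and its part in the result was not tested. The mitotic cyclin Ccnb1 (61.2 and 72.9 CPM, 1.19, 1.16–1.22) and the kinesin Kif23 (53.9 and 46.1 CPM, 0.855, 0.831–0.879) marked the ends of the G2/M list.

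The erythroid cells of the Klf1 gate had both lists higher in IR. The replication sum was 1.12 (1.11–1.13) times Control and the G2/M sum 1.07 (1.06–1.08) times, with 19 of 20 and 22 of 24 genes above 1, where 47.3% of all genes were. Rrm2 passed the fold, at 127 CPM in Control and 172 in IR (1.35, 1.30–1.41), as did Ccnb1 at 87.7 and 115 CPM (1.307, 1.245–1.372) and the mitotic kinase Plk1 at 55.8 and 70.3 CPM (1.26, 1.19–1.34). These 3 genes compare with 6.74% of all 12362 genes higher and 12% lower, and no member was lower by that fold. Cdk1 and its cyclins as a group were 1.17 (1.15–1.20) times as high. The histone mRNA-binding protein Slbp was 185 and 226 CPM, a smaller ratio than that of Rrm2. By cells, the share with at least 8 G2/M genes was 1.14 (1.06–1.22) times Control. Car1 was lower in IR and the alpha globin Hba-a1 higher in this gate (347, 654 and 537 CPM), so its erythroid cells differed between libraries in other genes too, and the part of this in the result was not tested.

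The early B cells of the Igll1 gate went the other way. All 24 G2/M genes were lower in IR than in Control, with a sum of 0.861 (0.853–0.869) times Control, and 10 were lower past the fold, where 9.38% of all 10670 genes were lower and 9.13% higher. The median log2 ratio of the list was -0.30, while that of all genes was -0.01, with 46.9% of them above 1. The kinetochore genes Cenpe and Cenpf were lowest as a group, at 312, 223 and 254 CPM in Control, IR and IR+CBD (IR over Control 0.715, 0.681–0.750). Cenpf alone went from 206 to 142 CPM (0.693, 0.653–0.735), Mki67 from 360 to 276 CPM (0.765, 0.733–0.799) and the spindle assembly factor Tpx2 from 144 to 110 CPM (0.763, 0.712–0.818). Cenpf and Tpx2 act at the kinetochore and the spindle, and the spindle group as a whole was 0.789 (0.767–0.811) times Control. The replication genes moved less, with a sum of 0.947 (0.934–0.961) times Control, an MCM sum of 0.991 times and 15 of 20 genes below 1. Dtl, which marks Cdt1 for destruction, and the thymidylate synthase Tyms were 0.858 and 0.868 times Control, while Ccne1 was higher, at 28.8 and 39.5 CPM (1.37, 1.20–1.57). Fewer cells met the G2/M cut of 3 genes in IR, at 79.9% against 89.9% (ratio 0.889, 0.847–0.931). Without thinning these shares were 61.4% and 77.0%. Median depth in this gate was 10402.5, 8517 and 11723 UMIs in Control, IR and IR+CBD, and thinning left out 206, 305 and 99 shallower cells, so depth moved with the result before thinning. The summed erythroid markers in this gate were 146, 293 and 154 CPM (Car1 61.8, 228 and 130), and 0.659%, 2.94% and 2.28% of its cells lay in the Klf1 gate. The part of depth and of these cells in the CPM was not tested. With each cell given equal weight the G2/M ratio was 0.728 and the replication ratio 0.809.

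Myeloid cells differed little by fold but evenly in direction. In the Mpo gate 23 of 24 G2/M genes were below 1, with a sum of 0.926 (0.922–0.930) times Control, where 41.2% of all genes were above 1. Mki67 was lower past the fold, at 167 and 134 CPM (0.799, 0.781–0.817), where 10.7% of all genes were. Cenpe, a kinesin of the kinetochore, followed at 60.0 and 50.4 CPM (0.840, 0.809–0.872) and Aurka at 45.0 and 38.3 CPM. The replication sum was 0.976 (0.971–0.982) times Control and 1.00 with size factors from the median ratio of genes, and the MCM sum was 934 and 935 CPM. In Mpo gate cells outside the Cd34 Adgrl4 gate, a division chosen after seeing the data, the G2/M sum was 0.869 (0.862–0.875) times Control, with all 24 genes below 1 and 4 lower past the fold, where 7.58% of all 12112 genes were. In these cells 46.5% of all genes were above 1.

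The Fcnb gate had 21 of 24 G2/M and 17 of 20 replication genes below 1, where 27.9% of all genes were above 1, with sums of 0.936 (0.922–0.950) and 0.909 (0.884–0.936) times Control. The genes of this gate as a whole were shifted, with a median log2 ratio of -0.15 over all genes against -0.18 for the G2/M and -0.15 for the replication list, and with median-ratio size factors the sums were 1.03 and 1.00 times Control. In counts, 3 G2/M genes and 1 replication gene were lower past the fold, where 24.5% of all genes were. Mcm7 stood at 119 and 97.8 CPM (0.823, 0.732–0.924), and Ccnb1 at 67.3 and 52.9 CPM. Both lists thus moved about as far as the other genes of this gate.

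The Cd34 Adgrl4 gate gave sums near 1, at 1.01 (1.01–1.02) for the replication genes and 0.984 (0.979–0.989) for the G2/M genes, the latter 1.02 with median-ratio size factors and 1.06 as a mean over cells. No member passed the fold in either direction, where 6.74% of all genes were higher and 16.2% lower. Mki67 came nearest, at 168 CPM in Control and 141 in IR (0.843, 0.821–0.864). The gate differed in makeup, since Mpo gate cells were 69.0% of it in Control and 87.4% in IR. It was therefore divided at 5 UMIs of Mpo, after seeing the data. Cells under 5 UMIs of Mpo (967 Control, 246 IR and 327 IR+CBD) had both lists higher in IR, with a replication sum of 1864, 2118 and 2041 CPM (IR over Control 1.14, 1.11–1.16) and a G2/M sum of 3152, 3709 and 3770 CPM (1.18, 1.16–1.20). There, 7 replication and 9 G2/M genes were higher past the fold, where 11.2% of all 10814 genes were. Cdk1 and its cyclins were 1.31 (1.24–1.39) times Control and the APC/C genes Cdc20 and Ube2c 1.29 (1.22–1.37) times. By cells, 21.6%, 30.7% and 30.8% of Control, IR and IR+CBD cells under the Mpo limit had at least 8 G2/M genes (IR over Control 1.42, 1.13–1.77), and those with neither programme at the cut of 3 were 15.1%, 9.43% and 8.62%. Cells at or above the limit had sums of 0.982 and 0.950 times Control, on the other side of 1. Median depth of the cells under the limit was 15047, 21638 and 17171 UMIs. Their makeup differed too, since the summed markers of the Mpo gate were 991, 1216 and 1140 CPM (Calr 463, 656 and 617, but Elane 37.6, 20.4 and 32.4) and those of the Fcnb gate 1341, 1703 and 2625 CPM. The part of depth and makeup in the result was not tested.

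The Siglech gate rests on 46 IR and 79 IR+CBD cells, and its lists separated. The replication sum was 1869, 1439 and 1272 CPM in Control, IR and IR+CBD (IR over Control 0.770, 0.717–0.826), while the G2/M sum was 3309, 4300 and 4263 CPM (1.30, 1.245–1.356). Of the genes with at least 100 UMIs in both libraries together, 12 of 17 replication genes were lower past the fold, where 22.6% of all 5882 genes were, and 12 of 19 G2/M genes were higher, where 12.9% were. Mcm3 was 128 and 74.7 CPM (0.584, 0.421–0.794), Mcm4 74.5 and 39.0 CPM (0.523, 0.329–0.798), and Ube2c, the ubiquitin-conjugating enzyme of the APC/C, 209 and 382 CPM (1.83, 1.57–2.13). By cells no difference was detectable at this number, with 43.5% and 44.4% at the G2/M cut of 3 (ratio 1.02, 0.694–1.41) and 17.3% and 24.4% at the cut of 8 (1.42, 0.778–2.43). Mature neutrophil markers were 168 CPM in Control and 1541 in IR and predicted doublets 16.1% and 26.1%, and their part in the result was not tested. Without predicted doublets the ratios were 0.794 and 1.504, and in cells of no other gate, a restriction chosen after seeing the data, they were 0.789 and 1.30.

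**Figure D4:**
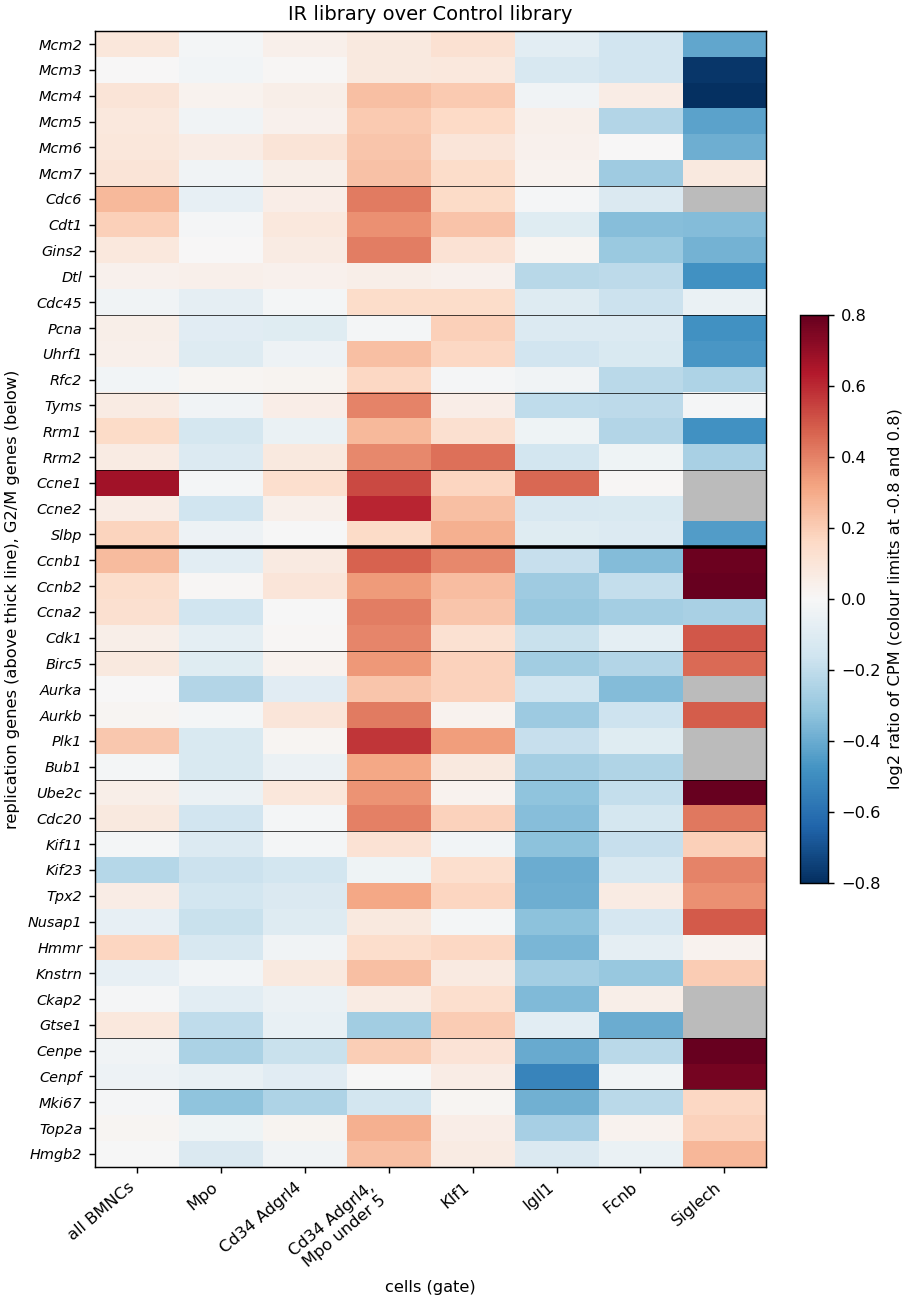
Log2 ratio of CPM, IR over Control, for each of the 44 genes (rows, replication genes above the thick line and G2/M genes below it) in all BMNCs, the gates and the Cd34 Adgrl4 cells under 5 UMIs of Mpo (columns), with the colour scale limited at -0.8 and 0.8 and grey for genes under 100 UMIs. G2/M genes are lower throughout the Igll1 column, where all 24 were below 1, and mostly higher in the Klf1 column, where 22 were above 1.

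IR+CBD was compared with IR, both of which were irradiated, to read what accompanied cannabidiol. Over all BMNCs every one of the 20 replication genes was lower in IR+CBD, with log2 ratios from -0.19 to -0.02 and a sum of 0.927 (0.923–0.931) times IR, where 50.6% of all genes were above 1. The G2/M sum was 1.01 (1.01–1.01) times IR with 12 genes on each side. No member passed the fold, where 6% of all 17625 genes were lower and 6.72% higher. Mcm6, a subunit of the replicative helicase whose promoter is printed above with 3 E2F matches, was 198 CPM in IR and 175 in IR+CBD (0.882, 0.869–0.896), and Ube2c was 252 and 274 CPM.

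A lower replication sum was seen in several gates, most evenly in the Mpo and Cd34 Adgrl4 gates. In the Mpo gate all 20 replication genes were again below 1, with a sum of 0.912 (0.906–0.918) times IR and an MCM sum of 0.889 (0.880–0.898) times, at 831 CPM against 935 in IR and 934 in Control. The G2/M sum was 1.04 (1.03–1.04) times IR with 19 of 24 genes above 1, where 51% of all genes were. Cdc20 and Ube2c together were 298, 283 and 330 CPM (1.17, 1.15–1.19). No member of either list passed the fold, where 6.9% of all 14903 genes were higher and 4.95% lower. Mcm6 was 215, 225 and 193 CPM in Control, IR and IR+CBD (IR+CBD over IR 0.859, 0.841–0.876), Dtl was 106 and 91.3 CPM in IR and IR+CBD, and Ube2c was 208 and 248 CPM (1.19, 1.17–1.22). By cells, the share with at least 8 replication genes was 58.0%, 54.6% and 48.3% in Control, IR and IR+CBD (IR+CBD over IR 0.885, 0.843–0.930). Median depth per cell was 33196, 30684 and 24151 UMIs and Elane was highest in IR+CBD, and the part of either in the CPM was not tested. In Mpo gate cells outside the Cd34 Adgrl4 gate the replication sum was 0.919 times IR, again with all 20 genes below 1. The G2/M sum was 1.01 times IR with 11 of 24 genes above 1 (median log2 ratio -0.03), where 50.2% of all genes were.

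The Cd34 Adgrl4 gate, which draws most of its cells from the Mpo gate, gave like values. Its replication sum was 0.912 (0.905–0.919) times IR with all 20 genes below 1, and its G2/M sum 1.05 (1.04–1.05) times with 20 of 24 above 1. Of all genes in the gate, 54.3% were above 1. Only Ccne1 passed the fold, at 19.7, 21.6 and 16.4 CPM in Control, IR and IR+CBD (0.762, 0.701–0.828), where 4.87% of all genes were lower and 7.08% higher. Ube2c was 209 CPM in IR and 261 in IR+CBD (1.247, 1.218–1.276), which left it just short of the fold, and Nusap1 was 81.8 and 93.9 CPM. Cells with Mpo of 5 UMIs or more had all 20 replication genes below 1 and 20 of 24 G2/M genes above it, where 52.9% of all genes were above 1. Cells under 5 UMIs of Mpo had 14 of 20 and 9 of 23, where 51.1% of all genes were above 1. The replication sum of those cells was 0.964 (0.940–0.988) times IR.

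Early B cells were on the other side of 1. In the Igll1 gate 19 of 20 replication genes and 21 of 24 G2/M genes were higher in IR+CBD than in IR, where 52% of all genes were above 1. The sums were 1.10 (1.08–1.12) and 1.08 (1.06–1.09) times IR, and no member passed the fold, where 7% of all 10081 genes were higher and 8.79% lower. Uhrf1 was 166 CPM in IR and 206 in IR+CBD (1.24, 1.16–1.32), Pcna 462 and 512 CPM, Mki67 276 and 330 CPM (1.20, 1.14–1.26) and Top2a, the topoisomerase that untangles replicated chromosomes, 502 and 581 CPM. In IR+CBD, Mki67 and Top2a lay between IR and Control (360 and 603 CPM in Control), and Uhrf1 and Pcna above both (185 and 499 CPM in Control). The share of cells at the G2/M cut of 3 was 88.5%, against 79.9% in IR and 89.9% in Control (IR+CBD over IR 1.11, 1.05–1.17). The gate held 438 IR+CBD cells against 918 in IR, at the greater depth given above.

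Erythroid cells differed little between IR+CBD and IR. The Klf1 gate gave 0.971 (0.965–0.978) times IR for the replication genes and 0.998 (0.993–1.00) times for the G2/M genes. There, 5 of 20 and 8 of 24 were above 1, where 43.9% of all genes were. None passed the fold, where 2.55% of all 12817 genes were higher and 7.98% lower. The Fcnb gate gave 0.957 (0.928–0.987) for the replication genes and 1.07 (1.05–1.09) for the G2/M genes, of which 21 of 23 were above 1, where 60.6% of all genes were. There, Aurka, the kinase of the spindle poles, was 42.2 CPM in IR and 53.5 in IR+CBD (1.27, 1.05–1.52), the only member past the fold upward, where 10.8% of all 7017 genes were. Ube2c in this gate was 335 and 406 CPM (1.21, 1.14–1.29), so the enzyme was higher in IR+CBD in the Mpo, Cd34 Adgrl4 and Fcnb gates. Without predicted doublets the sums of the Fcnb gate were nearer to 1, at 0.993 and 1.01 times IR. The Siglech gate gave 0.884 (0.808–0.968) and 0.992 (0.943–1.04) from the 46 and 79 cells named above, and 0.804 and 0.776 without predicted doublets. In the Retnlg reference, where replication genes are at their lowest, the replication sum was 0.851 (0.828–0.875) times IR and the MCM sum 318, 362 and 292 CPM, so a lower replication sum in IR+CBD was also measured in these cells, of which 16.2%, 19.1% and 19.1% were predicted doublets.

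**Figure D5:**
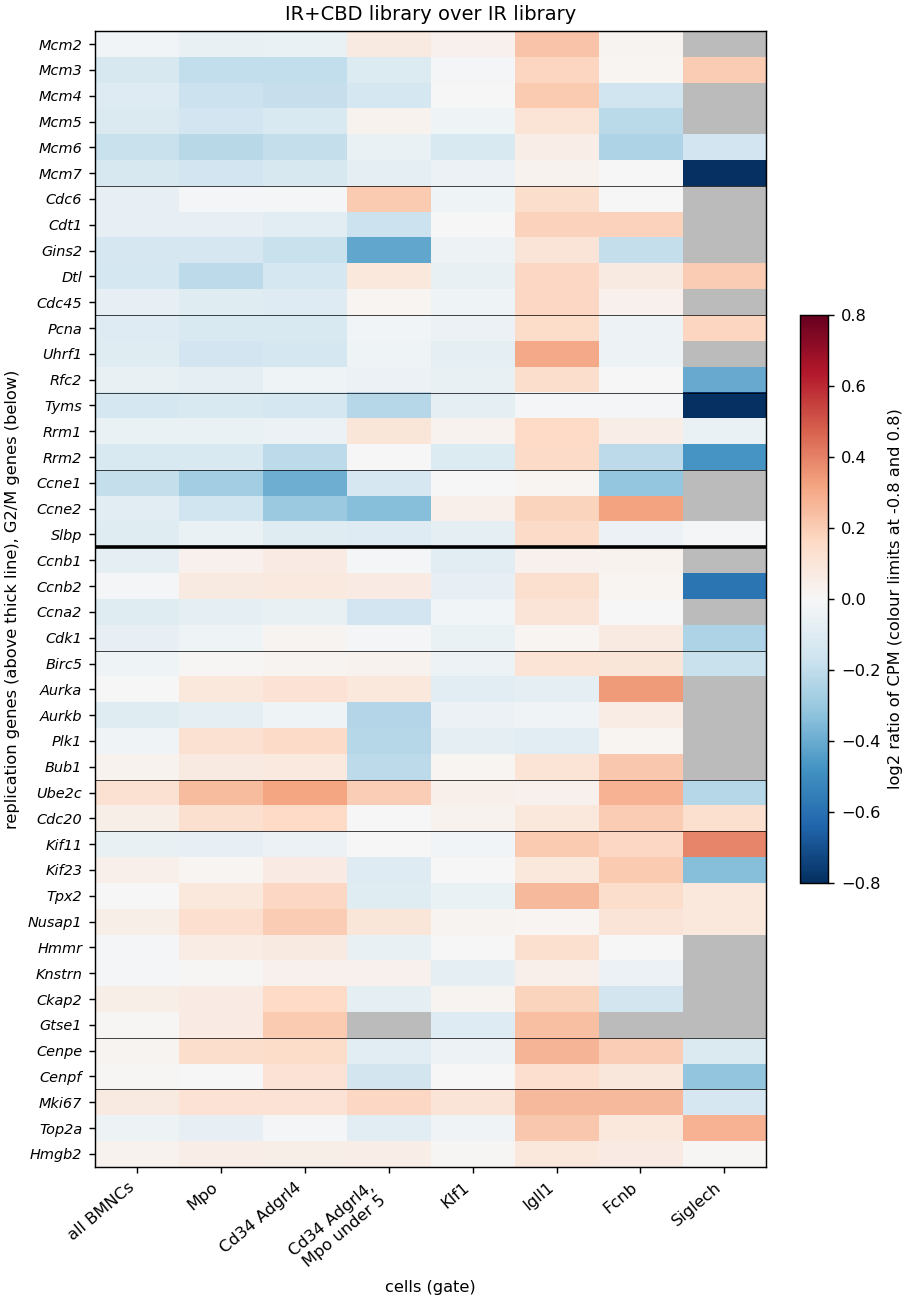
Log2 ratio of CPM, IR+CBD over IR, for each of the 44 genes (rows, replication genes above the thick line and G2/M genes below it) in all BMNCs, the gates and the Cd34 Adgrl4 cells under 5 UMIs of Mpo (columns), with the colour scale limited at -0.8 and 0.8 and grey for genes under 100 UMIs. All 20 replication genes were below 1 in the Mpo and Cd34 Adgrl4 columns, and 19 were above 1 in the Igll1 column.

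Another 45 genes of the cell cycle, among them cyclins D, E2F factors and CDK inhibitors, were read beside the 44. Over all BMNCs 2 of the 45 were higher and 2 lower past the fold in IR than in Control, where 9.59% of all 17989 genes were higher and 19.4% lower. None passed it in IR+CBD against IR, where 6.72% of all 17625 genes were higher and 6% lower. Cdkn1a, the p21 inhibitor of cyclin-dependent kinases and a known target of p53, was 75.7, 36.6 and 38.6 CPM in Control, IR and IR+CBD (IR over Control 0.483, 0.470–0.497). It was lower in IR than in Control in the Mpo gate (63.6 and 42.8 CPM), the Klf1 gate (17.1 and 10.2), the Igll1 gate (68.9 and 44.1), the Fcnb gate (28.0 and 15.2) and the Cd34 Adgrl4 gate (101 and 57.6), but not in the Siglech gate (59.4 and 68.2 CPM, ratio 1.15, 0.802–1.61). In the Igll1 gate it was 64.8 CPM in IR+CBD, 1.47 (1.29–1.67) times IR. Ccnd1, the cyclin D1 that starts the exit from G1, was 14.2, 40.9 and 29.9 CPM in the Mpo gate, 2.88 (2.71–3.06) times Control in IR, and 19.5, 50.9 and 43.3 CPM in the Cd34 Adgrl4 gate, 2.61 (2.46–2.76) times. Ccnd2, another D cyclin, was 76.1 CPM in IR and 52.9 in IR+CBD in the Klf1 gate (0.694, 0.661–0.729). In the Mpo gate the ratios of Ccnd1 and Cdkn1a between IR and Control were thus farther from 1 than that of any of the 44 genes.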

How the data were processed

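For the 3 libraries the authors deposited raw UMI counts, not normalized. Their file headers give Cell Ranger 7.0.1, the submitters' processing notes Cell Ranger 4.0 and GRCm39, and the authors describe DoubletFinder although the matrices still held cells over the 5% mitochondrial limit. Ratios, percentages, CPM and log2 values were computed here from the deposited counts with Python 3.11.15, numpy 2.4.6, pandas 2.3.3 and scipy 1.17.1, and drawn with matplotlib 3.10.9. Cells needed 200 genes and at most 5% mitochondrial UMIs. Predicted doublets (Scrublet in scanpy 1.11.5, the highest-scoring 0.8% of cells per 1000 cells, 911 Control, 856 IR and 844 IR+CBD cells) were kept and removed as an alternative.

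UMIs were summed per gate and library. Shares have Clopper-Pearson, share ratios score, CPM exact Poisson and CPM ratios exact conditional binomial 95% intervals, which cover counting error only. A gene counted as past the fold when 25% higher or 20% lower with at least 100 UMIs in both libraries together, and the background is the share of all such genes. Lists were described by counts and medians with no test, and the interval script was tested on simulated data. Named genes are, in each population and comparison, up to 3 members per list and direction whose interval bound nearest to 1 lay farthest from 1, plus role groups and up to 5 other cell cycle genes by the same rule. Genes named across gates for comparison were chosen after their values were seen. Members, gates and lists were chosen with earlier results of these data known. The 45 other cell cycle genes are a hand-made list. Gene names came from the deposited gene lists, and promoters from RefSeq tables of GRCm38.p6, used for their letters and their own coordinates only.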

Additional observations from a re-analysis of the deposited data

Results flagged for a closer look

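The gates moved in opposite directions under the same contrast, and the difference between gates was not tested, since each condition is 1 library. For IR over Control, the ratio of summed replication CPM was 1.116 in the Klf1 gate and 1.014 in the Cd34 Adgrl4 gate, against 0.9761 in the Mpo gate, 0.9474 in the Igll1 gate, 0.9092 in the Fcnb gate and 0.7699 in the Siglech gate. The G2/M ratio for the same contrast was 1.068 in the Klf1 gate and 1.3 in the Siglech gate, against 0.9261 in the Mpo gate, 0.8607 in the Igll1 gate, 0.9359 in the Fcnb gate and 0.9843 in the Cd34 Adgrl4 gate. For IR+CBD over IR, the replication ratio was 1.099 in the Igll1 gate, against 0.9119 in the Mpo gate, 0.9714 in the Klf1 gate, 0.9571 in the Fcnb gate, 0.8842 in the Siglech gate and 0.9119 in the Cd34 Adgrl4 gate. The Cd34 Adgrl4 gate draws most of its cells from the Mpo gate, so these gates are not separate cases.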

How the results depend on the processing

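No paired analysis was possible because each condition is 1 library, and for the same reason no replicate could be left out. Of the main values under each alternative, 219 moved by less than their counting interval (counts of genes, by less than 1.5 times), 64 moved by more without a change of sign, and 7 changed sign. Of the further values, 91, 57 and 8 did so. Among all of these values, 4 changed sign with median-ratio size factors and 1 at the cut of 8 genes. Another 2 did so in each of these: mean over cells, no thinning, gates on thinned cells, Mpo under 5 and Mpo of 5 or more. None of the values read moved with at least 1000 genes per cell, a mitochondrial limit of 10%, at least 20 UMIs per gene, no filter on UMIs or a fold of 1.5. The settings of UMIs per gene and of fold were each read on 8 values only. In the Igll1 gate the lowest G2/M log2 ratio was -0.53, so no G2/M gene there was lower by 1.5-fold. Counts of genes past the fold in a gate thus depend on the fold. The cause of each change was not tested. Values are IR over Control unless stated as IR+CBD over IR, and S share and G2/M share are ratios of the shares of cells.

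CPM sums changed sign as a mean over cells (G2/M in all BMNCs 0.9824, in the Cd34 Adgrl4 gate 1.062) and with median-ratio size factors (replication in the Mpo gate 1.0 and the Fcnb gate 1.005, G2/M in the Fcnb gate 1.035 and the Cd34 Adgrl4 gate 1.016). After seeing the data the Cd34 Adgrl4 gate was divided by Mpo. At 5 or more the replication sum was 0.9824, the S share 0.996 and the G2/M share 1.039, and under 5 the G2/M sum was 1.177, the S share 1.111, the G2/M share 1.193 and its IR+CBD over IR 1.018. As a mean over cells 20 sums moved without a change of sign, and with size factors 13 values did. Removing predicted doublets moved 15 of 56 values, all of them sums and none across 1. Outside the Siglech gate these were, for IR over Control, G2/M 1.017 in all BMNCs, 1.076 in the Klf1 gate and 0.9194 in the Mpo gate, and replication 0.9594 in the Mpo gate and 1.002 in the Cd34 Adgrl4 gate. For IR+CBD over IR they were replication 0.9318 in all BMNCs, 0.9787 in the Klf1 gate, 1.129 in the Igll1 gate and 0.9925 in the Fcnb gate, and G2/M 1.09 in the Igll1 gate, 1.011 in the Fcnb gate and 1.068 in the Cd34 Adgrl4 gate. The Mpo gate outside the Cd34 Adgrl4 gate gave G2/M shares of 0.9757 and, for IR+CBD over IR, 1.009.

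Without thinning, all BMNCs gave S 0.947 and G2/M 0.9752, the Klf1 gate G2/M 1.005, the Igll1 gate S 0.8624 and G2/M 0.7976 (IR+CBD over IR 1.153 and 1.174) and the Cd34 Adgrl4 gate S 1.015 and G2/M 1.067. Thinned to 2000 UMIs, G2/M was 1.027 in all BMNCs, 0.9438 in the Mpo gate, 1.072 in the Klf1 gate, 0.7825 in the Igll1 gate and 1.505 in the Siglech gate, and S was 1.065 in the Klf1 gate, 0.8179 in the Igll1 gate and 1.089 in the Cd34 Adgrl4 gate. At that depth IR+CBD over IR was 1.019 for G2/M in all BMNCs, 0.9483 for S in the Mpo gate, 0.9805 for S in the Klf1 gate, 1.33 and 1.275 for S and G2/M in the Igll1 gate and 0.949 and 0.9923 in the Cd34 Adgrl4 gate. Gates set on thinned cells gave G2/M 0.9949 in the Klf1 gate and 1.173 in the Cd34 Adgrl4 gate, S 0.775 in the Fcnb gate and 1.069 in the Cd34 Adgrl4 gate, and for IR+CBD over IR G2/M 1.128 in the Fcnb gate and 1.005 in the Cd34 Adgrl4 gate. With the Control mix of gates, G2/M in all BMNCs was 1.042. Without Hmgb2, G2/M was 1.094 in all BMNCs, 0.9963 in the Mpo gate and, for IR+CBD over IR, 1.172 in the Igll1 gate.

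With a cut of 5 genes, S was 1.064 in all BMNCs, 0.9842 in the Mpo gate, 1.028 in the Klf1 gate and 1.088 in the Cd34 Adgrl4 gate. G2/M was 1.096 in all BMNCs, 0.9646 in the Mpo gate, 1.482 in the Siglech gate and 1.172 in the Cd34 Adgrl4 gate, and S for IR+CBD over IR 0.968 in the Mpo gate and 0.9673 in the Cd34 Adgrl4 gate. The added cut of 8 genes gave S of 1.104 in all BMNCs, 0.9409 in the Mpo gate, 1.124 in the Klf1 gate, 0.7822 in the Fcnb gate and 1.091 in the Cd34 Adgrl4 gate. Its G2/M was 1.098 in all BMNCs, 0.8903 in the Mpo gate, 1.136 in the Klf1 gate, 0.8366 in the Igll1 gate, 1.417 in the Siglech gate and 1.097 in the Cd34 Adgrl4 gate. For IR+CBD over IR its S was 0.9226 in all BMNCs, 0.8854 in the Mpo gate, 0.9738 in the Klf1 gate, 1.197 in the Igll1 gate and 0.87 in the Cd34 Adgrl4 gate, and its G2/M was 1.014 in the Mpo gate, 1.028 in the Klf1 gate, 1.128 in the Fcnb gate and 1.037 in the Cd34 Adgrl4 gate. Numbers of cells limit the Siglech gate, where 46 and 79 cells make the share ratios wide.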

Other observations

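Cells in none of the 6 gates (4794 Control, 4849 IR and 4979 IR+CBD, with median depths of 4713, 4340 and 4195 UMIs) had replication sums of 1284, 1308 and 1308 CPM and G2/M sums of 4029, 3906 and 4143 CPM. At the cut of 3 genes in thinned cells, 46.7%, 46.1% and 46.8% of them met the G2/M cut.

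Ighd, an immunoglobulin heavy chain constant gene of mature B cells, gave a further set of cells in which little division would be looked for (at least 2 UMIs of Ighd, with 223 Control, 147 IR and 127 IR+CBD cells). Their G2/M sums were not low, at 5336, 6050 and 6203 CPM, and 69.0%, 69.7% and 80.4% of their 87, 66 and 56 cells with at least 5000 UMIs met the G2/M cut of 3. These cells were for this reason not used as a non-dividing reference, a choice made after seeing the data. Only the deeper of them entered the thinned share.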
